A study of Homo sapiens with 4 samples.

Results

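The Krüppel-like factors described here are 10 genes of 1 transcription factor family: KLF2, KLF3, KLF4, KLF5, KLF6, KLF9, KLF10, KLF11, KLF13 and KLF15. Their probes were taken from the deposited table by the gene symbol that the platform annotation gives each probe. All 10 genes were found, on 11 of the table's 26423 probes, since KLF13 had 2 probes and each of the others had 1. The list was drawn up with the berberine and control results of these arrays known, so its differences are given as a description. The samples were 2 berberine arrays, from HepG2 cells treated with 26.95 µM berberine for 24 hours, and 2 control arrays, from HepG2 cells without berberine. HepG2 is a human hepatocellular carcinoma line, and berberine is a plant alkaloid. The series asked how berberine affects the viability of these cells. A description field in the labels conflicts with this: it speaks of differentiation over 48 hours and, for the treated samples, of berberine at 13.47 µM. The titles, source names and treatment protocol were followed.

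Krüppel-like factors bind GC boxes and CACCC boxes in promoters through C-terminal zinc fingers that are much alike between members, while their N-terminal parts differ and recruit different cofactors. KLF2, KLF4, KLF5 and KLF6 are mostly activators that work with histone acetyltransferases, KLF3 is a repressor that recruits the corepressor CTBP, and KLF9, KLF10, KLF11 and KLF13 bind the SIN3A corepressor. In liver the family is known for roles in the response to injury, in fibrosis, and in glucose and amino acid metabolism, and several members are induced quickly by growth factors, stress or hormones.

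The array carries mouse probes, while the labels give human cells, so a gene name stands here for the mouse probe annotated to it, and the human transcript was not measured directly. Members are not ranked by level, since brightness depends on the probe as well as on its transcript. Over all probes the median deposited intensity was 77 and 85 in berberine samples 1 and 2, against 90 and 62 in control samples 1 and 2, and control 2 held 269 of the values below 0. The labels do not state separate cultures for the replicates, so the spread behind each p-value may be technical. Of 11 hepatocyte markers measured, 1 (RBP4, the retinol carrier of plasma) was brighter than the 95th percentile of the olfactory receptor probes, while ALB (albumin) had a mean of 8.35 and AFP (alpha-fetoprotein) a mean of 4.75 on the log2 scale, both inside the olfactory receptor range. Their summed normalised intensity was 7694 and 9325 in the berberine samples, against 17165 and 16134 in the control samples. RBP4 made up most of these sums. Its normalised log2 values were 12.68 and 12.93 in the berberine samples, against 13.93 and 13.84 in the control samples. Its difference was -1.08 (limma adjusted p = 0.132, with an intensity trend 0.025). The median difference of the 11 markers was 0.08 on the log2 scale. At an unadjusted limma p under 0.05 there were 2 of the 11, RBP4 and ALB (-0.41). Of 10 adipocyte markers 1, the fatty acid transporter CD36, was above that percentile. The list's sums were 1705 and 2641 in the berberine samples, against 1930 and 3606 in the control samples. On the normalised log2 scale CD36 was at 9.51 and 10.7 in the berberine samples, against 9.83 and 11.3 in the control samples. At an unadjusted limma p under 0.05 there were 3 of the 10, beside 13.0% of all genes. These were FABP4 at 1, ADIPOQ at -0.64 and RETN at -1.2, and 0 passed the limma threshold. The part of these markers in the results below was not tested.

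The deposited values were intensities on a linear scale. For the comparisons they were quantile normalised and put on a log2(value + 1) scale, on which all differences below are berberine minus control. Olfactory receptor genes served as a reference for dim probes, since most cells do not express them. Over 528 such genes the median of the mean log2 level was 6.05 and the 95th percentile 9.24. None of the 10 Krüppel-like factors was above 9.24. Their means over all 4 samples lay between 4.66 for KLF3 and 8.17 for KLF9, and 11.4% of the olfactory receptor genes were dimmer than KLF3 and 83.9% dimmer than KLF9. Of all 17778 named genes, 9.15% were above that percentile. Every member's signal was therefore inside the range of probes taken here as background, and the values below are to be read with that limit.

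**Figure D1:**
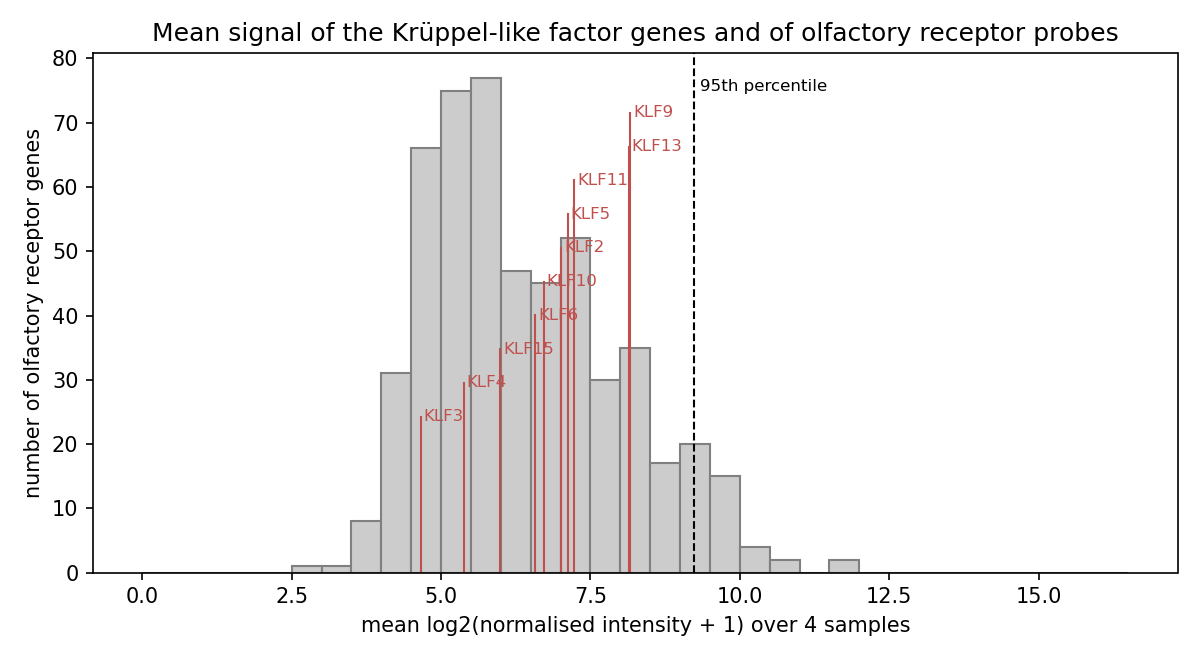
Histogram of the mean log2(normalised intensity + 1) over the 4 samples of 528 olfactory receptor genes (x axis, log2 units; y axis, number of genes), with the 10 Krüppel-like factors marked at their own means and a dashed line at the 95th percentile, 9.24. All members lie to the left of that line, from KLF3 at 4.66 to KLF9 at 8.17; the heights of the member lines only separate the names.

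After normalisation KLF6 was the member with the widest difference. KLF6 is a zinc finger activator induced in liver injury and studied as a tumour suppressor in hepatocellular carcinoma. Its probe read 115 and 151 in berberine samples 1 and 2, against 69 and 60 in control samples 1 and 2, as deposited. Both berberine values lay above both control values. On the normalised log2 scale KLF6 averaged 7.08 ± 0.15 in the berberine samples and 6.08 ± 0.26 in the control samples (SD, n = 2 each), a difference of 0.99 with an SE of 0.18, or 1.99-fold. The difference was 1.02 with the values as deposited and 0.91 after median centring, and the groups stayed apart under both. KLF3 had the wider difference under these scalings, at 1.20 and 1.09. After normalisation 1.21% of all 17778 genes had a difference as high as that of KLF6 or higher.

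KLF6 and KLF2 are shown by their human promoters, since factors of the family bind GC and CACCC boxes. KLF6 was taken because it differed most after normalisation, and KLF2 as an activator of the same group whose values overlapped between treatments. The sequences are those of RefSeq on GRCh38.p14 and run from 250 bases before to 50 bases after the gene's start, 5′ to 3′ on the gene's strand. KLF6 lies on the minus strand at chr10:3785160-3785459 and KLF2 on the plus strand at chr19:16324576-16324875. Capitals mark matches on either strand to the GC box core GGGCGG and to the CACCC box, searched as CACCC.
KLF6: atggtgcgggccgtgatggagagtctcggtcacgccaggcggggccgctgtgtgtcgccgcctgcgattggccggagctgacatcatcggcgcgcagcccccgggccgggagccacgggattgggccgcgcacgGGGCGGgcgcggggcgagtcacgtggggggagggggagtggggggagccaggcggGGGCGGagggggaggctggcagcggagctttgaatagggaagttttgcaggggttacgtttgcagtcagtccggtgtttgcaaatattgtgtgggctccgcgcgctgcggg
KLF2: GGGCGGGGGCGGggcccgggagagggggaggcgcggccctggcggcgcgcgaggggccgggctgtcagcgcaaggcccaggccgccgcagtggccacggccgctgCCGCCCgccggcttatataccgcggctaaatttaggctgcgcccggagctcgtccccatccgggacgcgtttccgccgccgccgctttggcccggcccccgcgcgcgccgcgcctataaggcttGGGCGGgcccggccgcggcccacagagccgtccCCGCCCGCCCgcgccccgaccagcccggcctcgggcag
The KLF6 promoter held 2 matches to GGGCGG and 0 to CACCC, and the KLF2 promoter held 6 and 0. With 0 matches to CACCC, no overlap between the 2 motifs was possible. The last stretch of capitals in KLF2 holds 2 GC box matches that share bases. Of the 35116 promoters of this length in the table, 45.0% held GGGCGG and 59.9% held CACCC. The table held 10 promoters for 8 members, of which 8 held GGGCGG and 4 held CACCC. KLF5 and KLF11 each had 2 promoters among these. The promoters with GGGCGG had a GC content of 69% to 80.7%. Those without it, of KLF9 and of a KLF5 start, had 32.7% and 40.7%. The share over promoters of like GC content was not tested. KLF3 and KLF10 had no entry used here. A match is a description of these letters and not a bound site.

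The other activators differed less. KLF2, known for quiescence of endothelial cells and T cells, read 134 and 123 in the berberine samples, against 163 and 92 in the control samples. The control values enclosed the berberine values, and the normalised means of KLF2 were 7.03 ± 0.22 in berberine and 6.98 ± 0.27 in control samples (SD, n = 2 each), a difference of 0.06 with an SE of 0.20 that turned to -0.05 with median centring. KLF4, a factor of epithelial differentiation and of reprogramming to pluripotency, read 49 and 45 in the berberine samples, against 51 and 13 in the control samples. It overlapped between the groups, and its normalised difference was 0.27 with an SE of 0.19, where control 2 was the lowest of the samples. The KLF4 difference was 0.83 with the values as deposited, 0.72 after median centring, 0.47 without control 1 and 0.07 without control 2. KLF5, which supports proliferation of intestinal crypt cells, read 125 and 134 in the berberine samples, against 174 and 122 in the control samples. These deposited values overlapped. After normalisation KLF5 averaged 7.04 ± 0.07 in berberine and 7.20 ± 0.09 in control samples (SD, n = 2 each), where the groups were apart by a small margin, with a difference of -0.16 and an SE of 0.12 (-0.28 after median centring).

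KLF3, the CTBP-recruiting repressor studied in red cells and fat cells, was read from 1 dim probe. The values were 31 and 26 in the berberine samples, against 40 and 3 in the control samples. The gap between the controls exceeded that between the groups, and the difference was 0.15 with an SE of 0.30 after normalisation. It was 1.20 with the values as deposited and 1.09 after median centring. In the normalised fit without control 2 it turned to -0.20.

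Among the SIN3A-binding members, KLF10 had the largest difference, in the direction opposite to KLF6. KLF10 is an early gene of TGF-beta signalling that restrains growth. Its probe read 87 and 102 in the berberine samples, against 137 and 102 in the control samples. Berberine 2 and control 2 were equal as deposited. After normalisation KLF10 averaged 6.53 ± 0.03 in berberine and 6.92 ± 0.02 in control samples (SD, n = 2 each), and the groups no longer overlapped, with a difference of -0.39 and an SE of 0.11. The difference was -0.32 with the values as deposited and -0.44 after median centring. Of all genes, 9.47% had a difference as low as this or lower.

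KLF11, a second early gene of TGF-beta signalling, read 134 and 152 in the berberine samples, against 164 and 144 in the control samples. The groups overlapped, and the normalised difference was -0.07 with an SE of 0.12 (-0.22 after median centring). KLF9, which is induced by glucocorticoids and thyroid hormone, read 258 and 268 in the berberine samples, against 363 and 268 in the control samples. Berberine 2 and control 2 were again equal, and the normalised difference was -0.10 with an SE of 0.13 (-0.25 with the values as deposited, -0.36 after median centring).

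KLF13, a relative of KLF9 known for its role in T cells, was the member with 2 probes. The brighter probe read 239 and 307 in the berberine samples, against 336 and 250 in the control samples, and overlapped between the groups, with a normalised difference of 0.04 and an SE of 0.12. That sign turned to -0.10 with the values as deposited and -0.21 after median centring. The dimmer probe read 78 and 75 in the berberine samples, against 108 and 71 in the control samples. It had a difference of -0.29 with an SE of 0.14, so the signs of the 2 KLF13 probes differed on this scale. Both were below 0 under the other scalings, where the dimmer probe was at -0.19 as deposited and -0.31 after median centring. KLF15, a liver factor of amino acid breakdown and gluconeogenesis, read 59 and 56 in the berberine samples, against 69 and 70 in the control samples. These groups were apart as deposited but overlapped after normalisation, where KLF15 averaged 5.81 ± 0.13 in berberine and 6.16 ± 0.37 in control samples (SD, n = 2 each), a difference of -0.35 with an SE of 0.22. Without control 1 it was -0.61, and without control 2 it was -0.09.

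**Figure D2:**
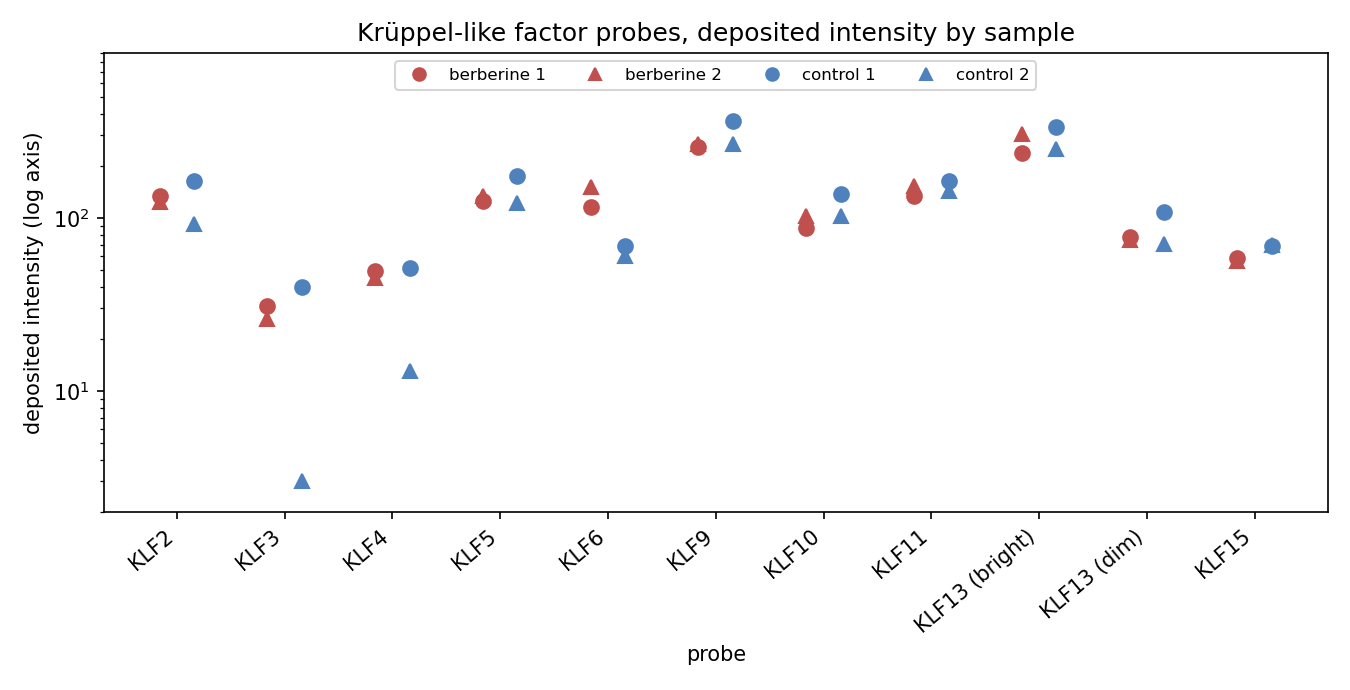
Deposited intensity (y axis, log axis, arbitrary units) of the 11 Krüppel-like factor probes (x axis) in each sample, with berberine samples in red on the left and control samples in blue on the right of each probe, circles for replicate 1 and triangles for replicate 2. At KLF6 both berberine points (115 and 151) lie above both control points (69 and 60), and at KLF3 and KLF4 control 2 stands apart at 3 and 13; heights of different probes are not comparable.

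Over the 10 members the differences spanned -0.39 to 0.99, 5 of them above 0 and 5 below. Their median was -0.013, -0.102 with the values as deposited and -0.215 after median centring, beside -0.009, 0.079 and -0.034 over all 17778 genes under the same 3 scalings. On the normalised scale 9 of the members had an absolute difference under 0.5, and of all genes 12.8% exceeded 0.5. With the values as deposited and after median centring, KLF3, KLF4 and KLF6 each exceeded 0.5. After normalisation the groups were apart upward for 1 member (KLF6) and downward for 2 (KLF5 and KLF10), beside 21.7% of all genes apart upward and 23.3% apart downward. After median centring 6 members were apart, with KLF6 upward and KLF5, KLF9, KLF10, KLF11 and KLF13 downward, beside 15.3% of all genes apart upward and 32.0% apart downward under that scaling. In the limma fit over all genes 0 of 10 members had an adjusted p under 0.05, beside 0.0506% of all genes, and 0 did with an intensity trend, beside 1.46%. At an unadjusted limma p under 0.05 there were 2 members, KLF6 among the higher (6.68% of all genes) and KLF10 among the lower (6.36%), beside 13.0% of all genes in either direction. With 2 samples a group, the smallest p that exact permutation could give for 1 gene is 0.333.

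The rest of the family was read from the same fit. Of 14 other KLF and SP genes measured, 0 passed the limma fit and 0 the fit with an intensity trend, while 2 had an unadjusted limma p under 0.05, both with higher values, beside the 13.0% of all genes in either direction and 6.68% higher. The SP factors are close relatives that bind the same GC boxes. SP3, which competes with SP1 there, read 116 and 112 in the berberine samples, against 32 and 22 in the control samples. Both berberine values of SP3 were above both control values, and the normalised means were 6.85 ± 0.19 in berberine and 5.00 ± 0.42 in control samples (SD, n = 2 each), 3.62-fold apart (limma adjusted p = 0.142, with an intensity trend 0.0537). With a pseudocount of 50, where 251 of all genes passed, the difference of SP3 was 1.02 and its limma adjusted p 0.0407. The limma adjusted p of SP3 was 0.414 with the values as deposited and 0.212 after median centring. The mean of SP3, 5.93, was inside the olfactory receptor range.

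SP4, a relative of SP1 studied mostly in neurons, read 880 and 945 in the berberine samples, against 772 and 544 in the control samples. Its mean, 9.60, was above the olfactory receptor 95th percentile, the 1 such case among these 14 genes, and its difference was 0.72 with an SE of 0.16 (limma adjusted p = 0.254), or 0.49 with the values as deposited and 0.38 after median centring. SP1 itself was at -0.30 (limma adjusted p = 0.425). KLF14, an imprinted gene linked to lipid metabolism, and SP1 are named here after their values were seen. KLF14 read 162 and 230 in the berberine samples, against 404 and 1080 in the control samples, a difference of -1.63 with an SE of 0.59 (limma adjusted p = 0.383). Its control values alone differed 2.67-fold as deposited. The median difference of the 14 genes was 0.015, beside -0.009 for all genes.

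**Figure D3:**
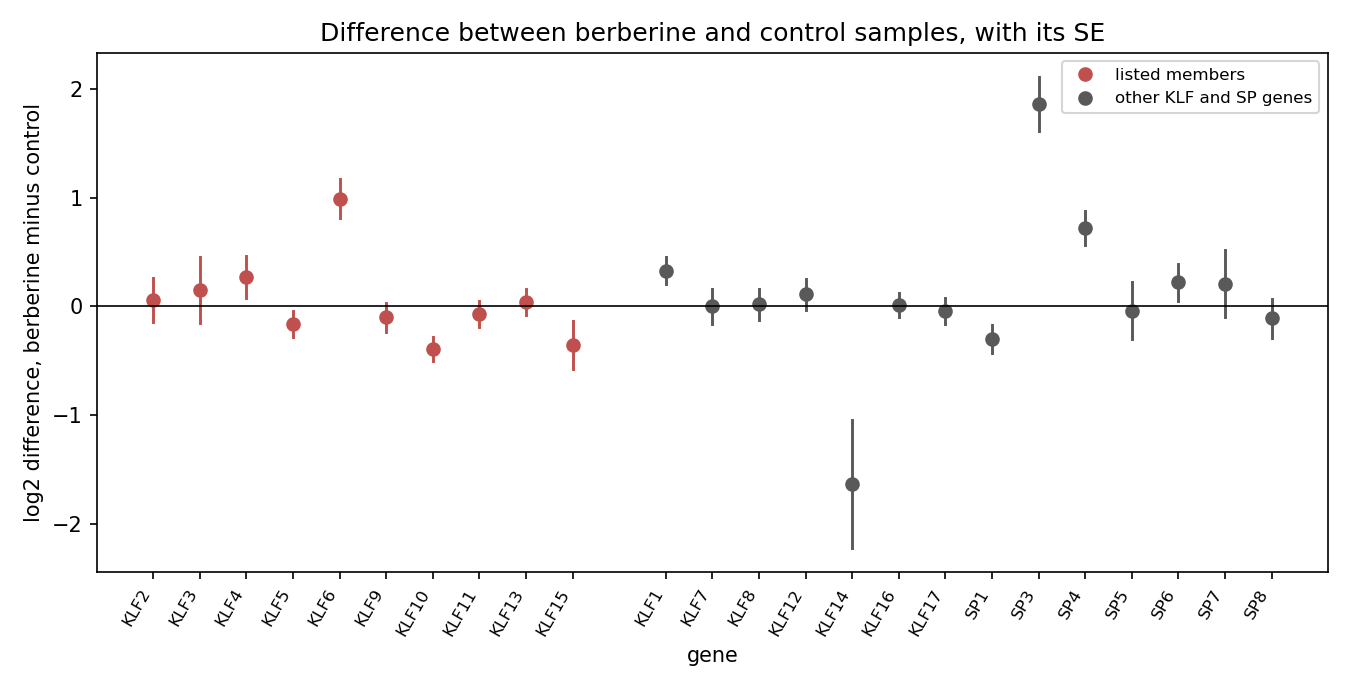
Difference between berberine and control samples on the log2 scale (y axis, berberine minus control) for the 10 listed Krüppel-like factors (red) and 14 other KLF and SP genes (grey) along the x axis; points are the fitted differences and vertical lines reach 1 SE to each side (n = 2 per group). KLF6 at 0.99, SP3 at 1.86 and KLF14 at -1.63 stand farthest from 0.

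Cofactors, regulators and reported targets of the family were compared in 6 further lists. Of 13 measured corepressors and coactivators 0 passed either fit. CTBP1, the corepressor that KLF3 recruits, had 6833 and 7798 in the berberine samples, against 12152 and 9416 in the control samples, a difference of -0.41 with an SE of 0.11 (limma adjusted p = 0.304, with an intensity trend 0.0725), or -0.66 after median centring. SET, a histone-binding protein that interacts with several KLF factors, was at -0.37 (limma adjusted p = 0.323, with an intensity trend 0.0707). Both probes were far above the olfactory receptor 95th percentile, at means of 13.11 and 14.86. SIN3A, the corepressor of the KLF10 group, was at 0.21. Its deposited groups overlapped, at 659 and 869 in the berberine samples, against 889 and 650 in the control samples. The list's median was 0.052, and -0.08 after median centring.

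Of 12 measured ubiquitin ligases and kinases 0 passed the limma fit. In the fit with an intensity trend, which 1.46% of all genes passed in either direction, 1 of them rose. This was ITCH, a ubiquitin ligase of the same class as WWP1, which marks KLF2 and KLF5 for degradation. ITCH read 183 and 230 in the berberine samples, against 106 and 92 in the control samples, a difference of 1.11 with an SE of 0.15 (limma adjusted p = 0.131, with an intensity trend 0.0428). The groups did not overlap, and the mean, 7.20, was inside the olfactory receptor range. WWP1 itself was at -0.10. The list's median was -0.129, and 0.009 with the values as deposited. Of 9 regulators of KLF2 and KLF4 transcription 0 passed either fit. HDAC5, a deacetylase that holds MEF2 factors inactive, was at 0.67 (limma adjusted p = 0.28), or 0.42 with the values as deposited and 0.31 after median centring. MEF2C was at -0.32 (limma adjusted p = 0.395), or -0.55 after median centring, with a second, dimmer probe at -0.03. That list's median was 0.229, and 0.031 after median centring.

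TGF-beta signalling, which induces KLF10 and KLF11, had 13 measured genes, of which 0 passed the limma fit. With an intensity trend 1 rose, beside 1.46% of all genes passing that fit in either direction. TGFB1, the ligand, read 1347 and 1545 in the berberine samples, against 714 and 590 in the control samples, a difference of 1.39 with an SE of 0.11 (limma adjusted p = 0.0854, with an intensity trend 0.00655). Its mean, 9.94, was above the olfactory receptor 95th percentile. SMAD7, the inhibitory SMAD whose repression by KLF10 is known, was at 0.53 (limma adjusted p = 0.332). It read 1450 and 1683 in the berberine samples, against 1541 and 1062 in the control samples, so its groups overlapped as deposited. The receptor TGFBR1 was at 0.38 (limma adjusted p = 0.332), with 839 and 948 against 832 and 776. The coreceptor TGFBR3 was at -0.43 (limma adjusted p = 0.329). SMAD7, TGFBR1 and TGFBR3 are named here after their values were seen. After normalisation the groups were apart upward for 4 of the 13 genes and downward for 4, beside 21.7% and 23.3% of all genes. KLF10 and KLF11 stood at -0.39 and -0.07 beside these values. The list's median was 0.131, 0.15 with the values as deposited and 0.037 after median centring.

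Of 10 glucocorticoid response genes, the setting in which KLF9, KLF13 and KLF15 are studied, 0 passed either fit. ERRFI1, a feedback inhibitor of the EGF receptor, was at 0.81 (limma adjusted p = 0.374), or 1.69 as deposited, where its control values were 20 and 3, and TAT, a liver enzyme of tyrosine breakdown, at 0.32 (limma adjusted p = 0.574). Of 19 measured genes reported as targets of the family 0 passed either fit and 5 had an unadjusted limma p under 0.05, all with higher values, where the share of all genes was the 6.68% given above. Such counts were 5 of 13 TGF-beta genes (4 higher), 4 of 12 ubiquitin ligases and kinases (2 higher) and 3 of 13 cofactors (1 higher). They were 1 of 9 regulators and 1 of 10 glucocorticoid response genes, both higher, beside 13.0% of all genes in either direction. GPT, the alanine aminotransferase that KLF15 is known to induce in liver, was at 0.68 (limma adjusted p = 0.284) and ABCC6, a liver transporter, at 0.57 (limma adjusted p = 0.27). The targets' median was 0.152, but -0.035 with the values as deposited and -0.148 after median centring. For the growth regulators among them, the differences were -0.66 for CDKN1A, 0.49 for CDKN1B and 0.17 for CCND1, and none of these passed either fit. As deposited, CDKN1A read 260 and 252 in the berberine samples, against 688 and 296 in control samples 1 and 2. CCND1 read 527 and 619 in the berberine samples, against 632 and 542 in the control samples, so its deposited groups overlapped.

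**Figure D4:**
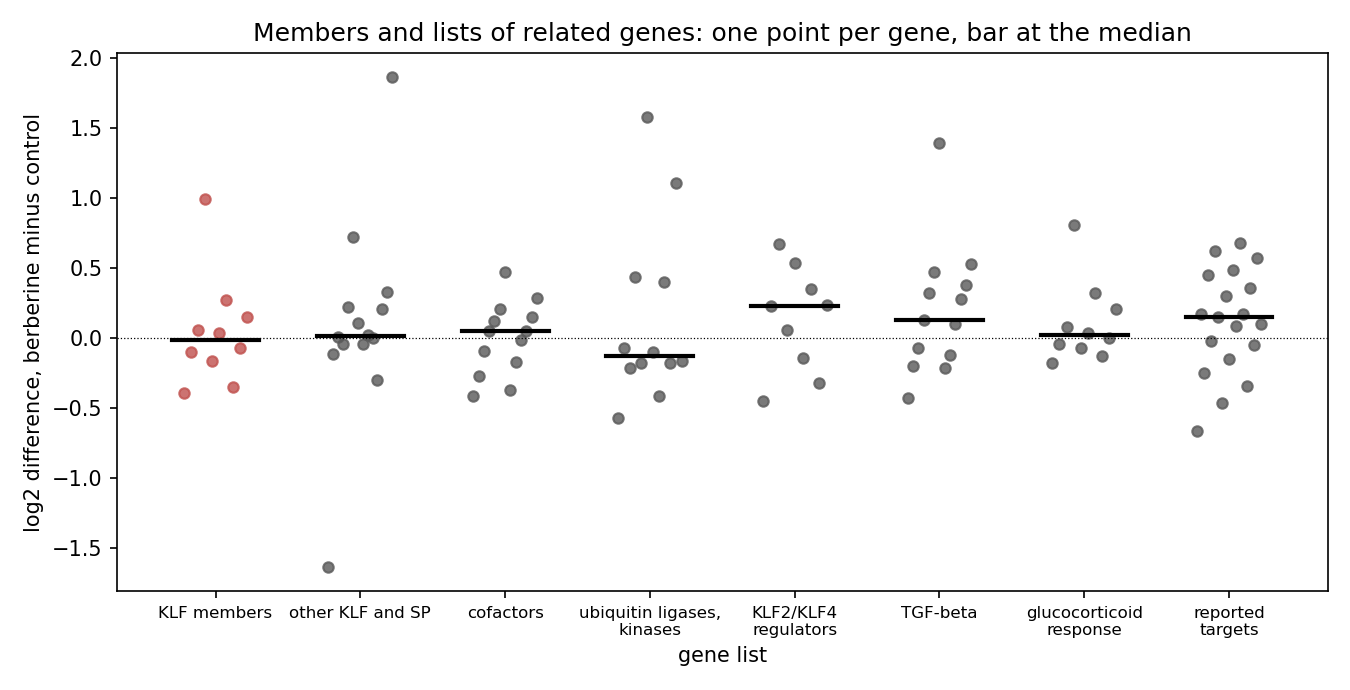
Difference between berberine and control samples on the log2 scale (y axis, berberine minus control) for every measured gene of the Krüppel-like factor members (red) and of 7 lists of related genes (grey), with 1 point per gene and a black bar at each list's median; sideways spread only separates points. The medians lie between -0.129 and 0.229, and 1 member, KLF6, stands at 0.99.

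The genes most like KLF6 across the 4 samples were sought among the 1626 genes above the olfactory receptor 95th percentile, by Euclidean distance after centring each gene on its own mean. The 5 nearest were ROCK1, a kinase of actomyosin contraction (distance 0.102), HIPK1, a nuclear kinase (0.153), ACTN1, an actin cross-linker (0.174), LGALS1, the lectin galectin-1 (0.191), and MAP3K14, the NF-kB inducing kinase (0.2), all in log2 units over 4 samples. ROCK1 read 2446 and 3073 in the berberine samples, against 1518 and 1609 in the control samples, and LGALS1 read 63706 and 75842 in the berberine samples, against 33395 and 30736 in the control samples. Their differences ran from 0.86 for ACTN1 to 1.04 for ROCK1, beside 0.99 for KLF6. These genes were selected by the same 4 values that they are described with.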

How the data were processed

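Total RNA of 2 berberine and 2 control samples was labelled with Cy5 for 1-colour arrays, per the labels' protocols. The deposited table holds intensity values as whole numbers, and how the authors scanned, background-corrected and normalised them is not given in the sources used here.  The sample medians as deposited spanned 0.53 on the log2 scale, more than the 0.2 allowed, so the deposited intensities were quantile normalised for the fits. Normalised values under 0 were then set to 0, and log2(value + 1) was taken. A gene was represented by its probe with the highest mean. limma 3.58.1 in R 4.3.3 was fitted to 17778 genes (lmFit, eBayes without a trend, 2-sided, Benjamini-Hochberg adjustment, threshold 0.05, 2 residual degrees of freedom). A second fit took each of the 26423 probes as a row and gave the values of the dimmer KLF13 probe and of other second probes. The fit was tested on simulated data. Figures used matplotlib 3.10.9 in Python 3.11.15. No detection call was used here, and the number of arrays limits the precision.

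The members and lists were chosen with earlier results of these data known. The named genes were every member with every probe and the 5 genes nearest to KLF6, the member with the widest difference after normalisation. Each list gave the genes past the threshold in the main fit or with an intensity trend, otherwise the 2 with the smallest p. Named outside that rule are KLF14, SP1, SIN3A, WWP1, SMAD7, TGFBR1, TGFBR3, CDKN1A, CDKN1B, CCND1, FABP4, ADIPOQ and RETN, after their values were seen. Replicate numbers came from the titles. The alternatives were other scalings, leaving out the dimmest 30% of genes, a pseudocount of 50, other variance models, probe means per gene, probes as separate rows, the replicate number as a block and each sample left out. Marker lists for fibroblasts (7 measured), endothelial cells (6) and macrophages (5) had 0 genes above the olfactory receptor 95th percentile and 0 past the limma threshold, with 1, 0 and 1 at an unadjusted limma p under 0.05.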

Additional observations from a re-analysis of the deposited data

How the results depend on the processing

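The count of all genes past the limma threshold was 9, and it moved to 2 with the values as deposited, 0 with median centring, 138 without the dimmest 30% of genes, 251 with a pseudocount of 50, 260 with an intensity trend and 0 with each probe as a row. It was 0 in each of the 4 fits without 1 sample, where 1983, 2763, 1312 and 1370 genes had an unadjusted limma p under 0.05 without control 1, control 2, berberine 1 and berberine 2. With the replicate number as a block it was 0, with 1878 at an unadjusted p under 0.05 (2247 with median centring, 3101 probes with each probe as a row). The labels do not say that a number pairs samples, and the deviations of berberine 1 and control 1 from their group means correlated at 0.084 over probes. The count of Krüppel-like factors past the threshold was 0 under all 13 alternatives. The number with groups apart was 3, and it was 6 with median centring and 4 to 9 without 1 sample (9 without control 1, 6 without berberine 1, 5 without berberine 2). Over all genes the share apart was 45.0%, 47.3% with median centring, and 72.1%, 74.5%, 68.7% and 70.9% without control 1, control 2, berberine 1 and berberine 2. Leaving out a sample makes separation of the groups easier. The members' median moved to -0.215 with median centring. The fit without the dimmest 30% of genes held 8 members, as KLF3 and KLF4 were left out. KLF6 stayed above 0 under all 13, at 0.65 (pseudocount of 50) to 1.17 (without control 2), and KLF10 below 0, at -0.44 to -0.27. KLF2 turned to -0.05 with median centring and ran from -0.14 to 0.25 without 1 sample, below 0 without control 2 or berberine 1. KLF3 was at 1.20 as deposited and 1.09 with median centring. Without 1 sample KLF3 ran from -0.20 to 0.49, below 0 without control 2 or berberine 1. KLF13 turned to -0.10 as deposited, -0.21 with median centring and -0.12 for the mean of its probes. Without 1 sample KLF13 ran from -0.03 to 0.11, below 0 without control 2 or berberine 2. The cause of these turns was not tested. Of the other KLF and SP genes 1 passed with a pseudocount of 50 (SP3). Of the partner, regulator and target lists 1 gene passed without the dimmest genes (TGFB1), and 2 each (TGFB1 and ITCH) with a pseudocount of 50 or an intensity trend. Signal over background limits every member, since none was above the olfactory receptor 95th percentile.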
